A study of Mus musculus with 419 samples.

Results

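The 39 genes described here act in the entry into mitosis, in chromosome segregation or in cell division, and they were read in single mouse embryonic stem cells in G1, the phase that follows division. The genes were taken by name, and all their transcript rows in the GENCODE vM21 annotation were used from both allele tables. Every one of the 39 was found among 35171 genes with any value. The series holds 1 group of 419 cells of F1-21.6, a female hybrid embryonic stem cell line with 1 chromosome set from strain 129Sv and 1 from Cast/EiJ (CAST below). The cells grew on laminin-511 in medium with serum and LIF, with no feeder cells, were described as being in G1, and received no treatment. RamDA-seq, a method that reads total RNA over the full length of transcripts, was used without molecular identifiers. The line is a single hybrid line, the labels name no separate cultures, and the cells therefore count as 1 sample. Correlations over cells are descriptions with no p-value. No cells of another cycle phase were analysed here for comparison. Transcripts kept from the preceding division, transcripts made in G1 and transcripts of any cells not in G1 therefore cannot be told apart.

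Progress through mitosis is driven by cyclin-dependent kinase 1 bound to A-type and B-type cyclins, together with the Polo and Aurora kinases. The spindle checkpoint delays anaphase until kinetochores are attached to microtubules, and the anaphase-promoting complex then uses its activator Cdc20 to have securin and cyclin B degraded. In cycling cells the mRNAs of most of these genes rise in G2 and mitosis and fall in G1, and their promoters are known for a short element named the cell cycle homology region and for CCAAT boxes. Embryonic stem cells have a short G1 phase.

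A value below is the authors' scaled estimate of reads, summed over the rows of a gene and over both alleles, with the cell totals set to their mean. Before the results, 5 cells must be set apart. Over the 419 cells the 39 genes together held 347 in the lowest cell, 4434 at the median and 7431 in the highest, which was 0.0375%, 0.479% and 0.803% of a cell's total. The 5 lowest cells held 347, 419, 458, 472 and 858, and the next cell held 1566. Of the 10 pluripotency markers, 0, 4, 4, 7 and 1 reached a value of 10 in these 5 cells, in the same order, and the markers' summed level was 20.7, 242, 314, 340 and 48.1, against a median of 3401 over all cells. Fibroblast markers summed to 1996, 373, 18.0, 3.18 and 2728 in the 5 cells, against a median of 4.29 over all cells. They were led by Col1a1 at 1871, 338.3 and 2307 in the cells with sums of 347, 419 and 858. The keratin Krt8, which is on none of the marker lists, stood at 1111, 3949, 6765, 800.0 and 1842 in the 5 cells against a median of 4.83. Trophectoderm markers summed to 32.0, 118, 1018, 10.6 and 53.5, against a median of 8.23. The highest of these sums came largely from Krt7 at 743 and Hand1 at 256, while the defining marker Cdx2 was at 0 in all 5 cells. Summed neural markers lay between 217 and 888 in the 5 cells against a median of 50.4. Primitive endoderm markers summed to 20.1 to 147, against a median of 18.1, and the highest of these sums came from Pdgfra alone. The mesendoderm markers summed to 0 in 4 of the 5 cells and 3.18 in the other, and the 2-cell-like markers to 0 in all 5. The 5 cells held 32760, 31236, 24262, 31662 and 27602 rows above 0, against a median of 29431 over all cells, so that they lay on both sides of it. Replication genes were low in the same cells, with sums of 478 to 1614 against a median of 6887. The part of these other cell markers in the low mitotic values was not tested. Results are therefore also given without these 5 cells or without the 9 cells in which fewer than 5 pluripotency markers reached 10. Both limits were chosen after the values were seen, and 4 cells meet both.

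**Figure D1:**
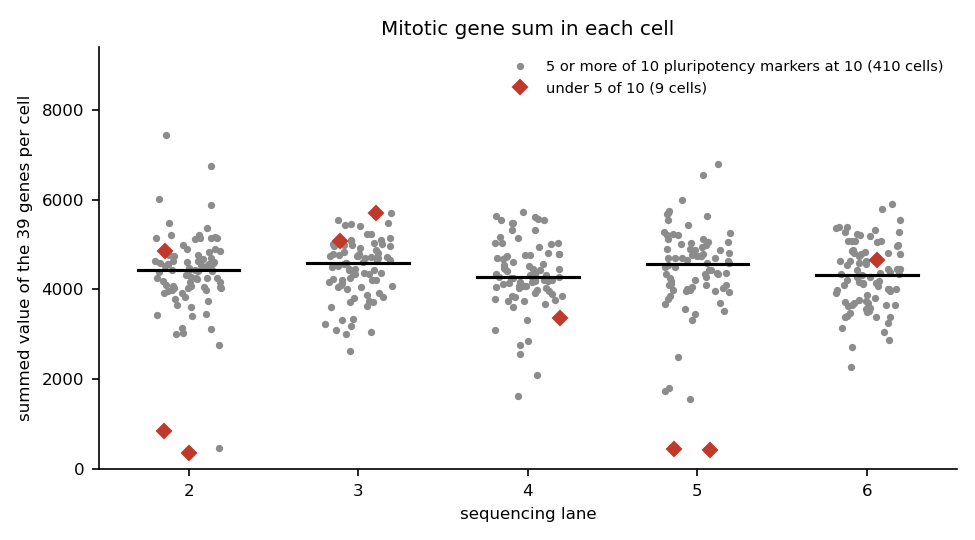
Summed value of the 39 mitotic genes in each cell (y axis, authors' scaled units) by sequencing lane (x axis), with the lane median as a bar. Red diamonds are the 9 cells in which fewer than 5 of 10 pluripotency markers reached 10; 4 of the 5 cells below 1000 are among them, while lane medians lie between 4287 and 4587.

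Transcripts of all 39 genes were present in nearly every G1 cell. All 39 were above 0 in at least 50% of cells, against 36.4% of all 35171 genes with any value, and all 39 were above 0 in at least 98% of cells, a limit added after the values were seen, against 20.3% of all genes. For the 10506 genes averaging 5 or more per cell the latter share was 67.9%. Of the 39 genes, 17 were above 0 in every cell, and 407 cells held all 39. Cdc25c and Nusap1 were at 0 in 5 cells each (98.8% of cells above 0, exact binomial interval 97.2% to 99.6% at 95% confidence, covering counting error only). Per kilobase of transcript, the members had a median level of 43.2 against 12.6 for these 10506 genes. Between cells the members varied by a median coefficient of variation of 37.7%, against 52.9% for the same 10506 genes. The sets were not matched for level: the median mean value was 82.8 for the members and 27.5 for the 10506 genes. The part of level in this difference was not tested. That count of 39 of 39 did not change without the 5 lowest cells.

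Of the cyclins and kinases of mitotic entry, Ccnb1, the B-type cyclin that activates Cdk1, had the highest level per kilobase at 125, a lowest lane mean of 116 and a highest of 135. Ccna2, the A-type cyclin that acts in S phase and early mitosis, followed at 94.9. The Polo kinase Plk1 stood at 81.4, the kinase Cdk1 at 63.4, the second B-type cyclin Ccnb2 at 61.5 and the Aurora A kinase gene Aurka at 35.8. Cdc25c, a phosphatase that activates Cdk1, was lowest of all 39 members, at 9.01 per kilobase. In every neighbouring pair of this order the ranges over cells from the 5th to the 95th percentile overlapped. The order also depends on how reads were divided among rows, since each row is divided by its own length. Ccnb1 and Ccna2 hold part of their value in non-coding rows that are shorter than their main coding rows. As a value per cell, without division by length, Ccna2 had a higher mean than Ccnb1. An order on coding rows alone was not computed. Ccna2 varied least between cells of all members, with a coefficient of variation of 25.1%, while Aurka and Cdc25c varied by 48.7% and 51.1%. As values per cell, Ccna2 ranged from 0 over a median of 207 to 369, and Aurka from 0 over 61.7 to 197.

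Among checkpoint and mitotic exit genes, Cdc20 (mm10, chromosome 4, 118432901 to 118437352), the activator of the anaphase-promoting complex, had the highest level per kilobase of the 39 members, 312, and its lane means ranged from 287 to 325. The next member, Ccnb1, had lane means of 116 to 135, so the lane means of these genes did not overlap, although their ranges over cells did. Cdc20 was above 0 in all 419 cells, from 12.4 in the lowest over a median of 377 to 1270.5 in the highest. Ube2c, the ubiquitin-conjugating enzyme of the same complex, stood at 91.0 per kilobase and ranged per cell from 0 over 85.7 to 232. The checkpoint kinase-like gene Bub1b was at 59.9 per kilobase, the checkpoint protein gene Mad2l1 at 43.4, Bub3, which brings the Bub kinases to kinetochores, at 35.5, the kinase Bub1 at 34.0 and the kinase Ttk, which starts checkpoint signalling, was lowest of this group at 16.7.

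Kinetochore genes were the lowest group per kilobase, with a median of 13.5 over 5 genes. Cenpa, the histone H3 variant that marks centromeres, led them at 48.0, followed by Nuf2 at 17.9, the large kinetochore protein gene Cenpf at 13.5, the kinesin Cenpe at 11.1 and Ndc80 at 9.66. Ndc80 and Nuf2 encode parts of the same microtubule-binding complex, and both were above 0 in all but 2 cells. Of the chromosomal passenger complex, which corrects wrong attachments and acts in cytokinesis, Cdca8, the borealin gene, stood at 46.6 per kilobase, Birc5, the survivin gene, at 45.1, the scaffold Incenp at 24.9 and the kinase Aurkb at 17.7. Aurkb ranged per cell from 0 over 24.0 to 59.0 and was at 0 in 4 cells.

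Spindle genes ran from Dlgap5, which bundles microtubules at kinetochores, at 54.2 per kilobase, to Nusap1, a microtubule-binding protein gene, at 13.6. Between them lay Tpx2, which activates Aurora A, at 45.4, the depolymerising kinesin Kif2c at 27.2, the microtubule-associated Ckap2 at 26.8, Hmmr, a spindle assembly factor, at 25.2 and the bipolar kinesin Kif11 at 19.7. Midzone and cytokinesis genes ran from Racgap1, a subunit of the centralspindlin complex, at 77.1 to the kinesin Kif20b at 13.1, with Ect2, the exchange factor for RhoA, at 56.2, the kinesin Kif20a at 50.3, Anln, the contractile ring scaffold anillin, at 48.2, Prc1, which bundles midzone microtubules, at 36.5 and Kif23, the kinesin of centralspindlin, at 22.2. Of the 2 chromosome structure genes, Top2a, the topoisomerase that untangles sister chromatids, stood at 86.7 and Mki67, the proliferation antigen Ki-67, at 43.2.

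Anln, singled out after its values were seen, held 70.6, 102.4, 81.2, 100.7 and 115.9 in the 5 lowest cells, while Cdc20 held 20.7, 19.7, 12.4, 20.1 and 40.1 and Mki67 held 0.941, 6.21, 4.51, 23.3 and 42.8. The medians over all cells were 195 for Anln, 377 for Cdc20 and 328 for Mki67, so Anln stayed nearest to its median in those cells among these 3 genes. The remaining members were not compared in this way. In the 9 cells with few pluripotency markers, Anln reached a median of 327 and a highest value of 612, against a median of 195 in the other 410 cells. Cdk1 and Mki67 also had higher medians in these 9 cells, at 85.4 against 72.4 and 348 against 328, while the remaining members had lower ones.

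**Figure D2:**
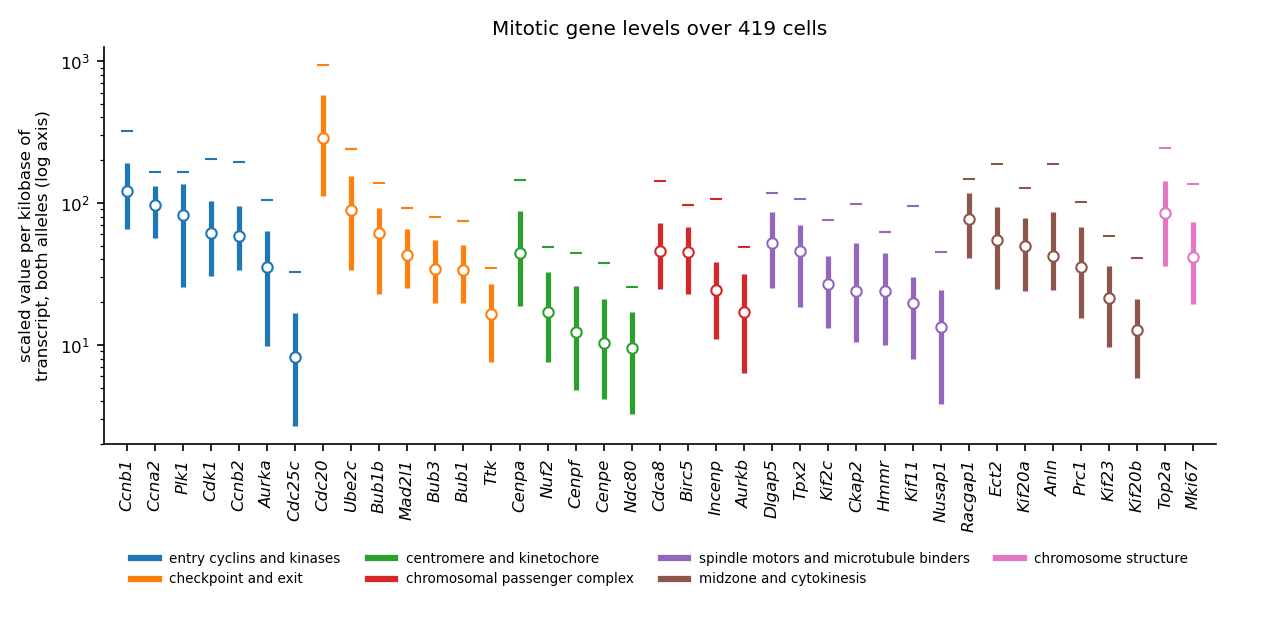
Level of each gene per kilobase of transcript (y axis, log scale, authors' scaled units, both alleles) with genes grouped by role along the x axis. Circles are medians over 419 cells, bars run from the 5th to the 95th percentile and ticks mark the highest cell; Cdc20 stands highest and Cdc25c lowest.

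Most of the value came from rows annotated as coding, which held 87.2% of the members' summed value in 96 rows. Rows annotated for nonsense-mediated decay held 6.04%, rows with a retained intron 5.36% and processed transcripts 1.43%. Reads of a gene were divided among its rows by estimate, so these shares are less certain than gene sums. The per-kilobase levels above rest on the same division, those of Cdc20 and Cenpa included, and were not computed on coding rows alone. Cenpa was the exception among the genes, with 13.5% of its value in coding rows, and its highest row, of 1031 bases, is annotated for nonsense-mediated decay and held 26.8%. Ccna2 had 51.3% in coding rows, since its row of 1719 bases annotated for decay held 47.6%, and Ccnb1 had 66.7%, with 27.0% in a retained-intron row of 1075 bases. In contrast 12 members, among them Anln, Incenp and Kif11, had all their value in coding rows. Rows of the same gene did not rise and fall together as a rule: over 91 pairs of rows with a mean of at least 5, in 23 genes, the median rho was 0.0422 over the 419 cells, from -0.634 for a pair of Bub3 rows to 0.813 for a pair of Cdc20 rows, and 34 pairs lay below 0. Row pairs share reads, their gene and their library.

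The second question was whether the members rise and fall together between cells. Over the 741 pairs of members, Spearman's rho over 419 cells had a median of 0.213, quartiles of 0.128 and 0.302 and a range from -0.177 to 0.567. Over all pairs of the 10506 genes the median was 0.0131. Here and in the comparisons below, members and other genes were not matched for level, and the part of level was not tested. All such values share the cell and its library. Without the 5 lowest cells the members' median was 0.188. Within single lanes it was 0.230, 0.155, 0.187, 0.293 and 0.190 for lanes 2 to 6. These lane values keep the 5 lowest cells, which all lie in lanes 2 and 5, the lanes with the highest values. At a rho of at least 0.3 stood 190 of the 741 pairs, or 25.6%, against 0.597% of all pairs. The highest pair joined 2 kinases of mitotic entry, Plk1 (mm10, chromosome 7, 122159439 to 122169873) and Aurka (chromosome 2, 172356190 to 172370535), at 0.567, which was 0.551 without the 5 lowest cells. Aurka stood at 0.491 with Ube2c, 0.485 with Hmmr and 0.481 with its activator Tpx2, and Tpx2 at 0.490 with Hmmr. The lowest pair was Ckap2 and Top2a at -0.177, followed by Ccnb2 and Top2a at -0.168 and Cdc20 and Top2a at -0.0992.

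Pairs within a role had a median rho of 0.255 and pairs across roles 0.207. The entry cyclins and kinases had 0.286, the spindle genes 0.273, the kinetochore genes 0.25, the midzone genes 0.239, the passenger complex 0.198 and the checkpoint genes 0.196, while Top2a and Mki67, the only pair of chromosome structure genes, had 0.025. Pairs of subunits of the same complex had both low and higher values. Ndc80 and Nuf2 had a rho of 0.0804, and the 6 pairs of passenger complex genes ran from 0.0755 for Aurkb and Cdca8 to 0.256 for Birc5 and Incenp. Ndc80, Nuf2 and Aurkb had low mean values of 21.3, 30.0 and 25.3, against a median of 82.8 over the members. The part of level in these rhos was not tested. Cdk1 had 0.333 with Ccnb1, 0.163 with Ccna2 and 0.0483 with Ccnb2. The centralspindlin pair Kif23 and Racgap1 stood at 0.374, and Kif20a and Racgap1, the highest pair of the midzone group, at 0.439. The kinetochore pair Cenpe and Cenpf stood at 0.416.

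**Figure D3:**
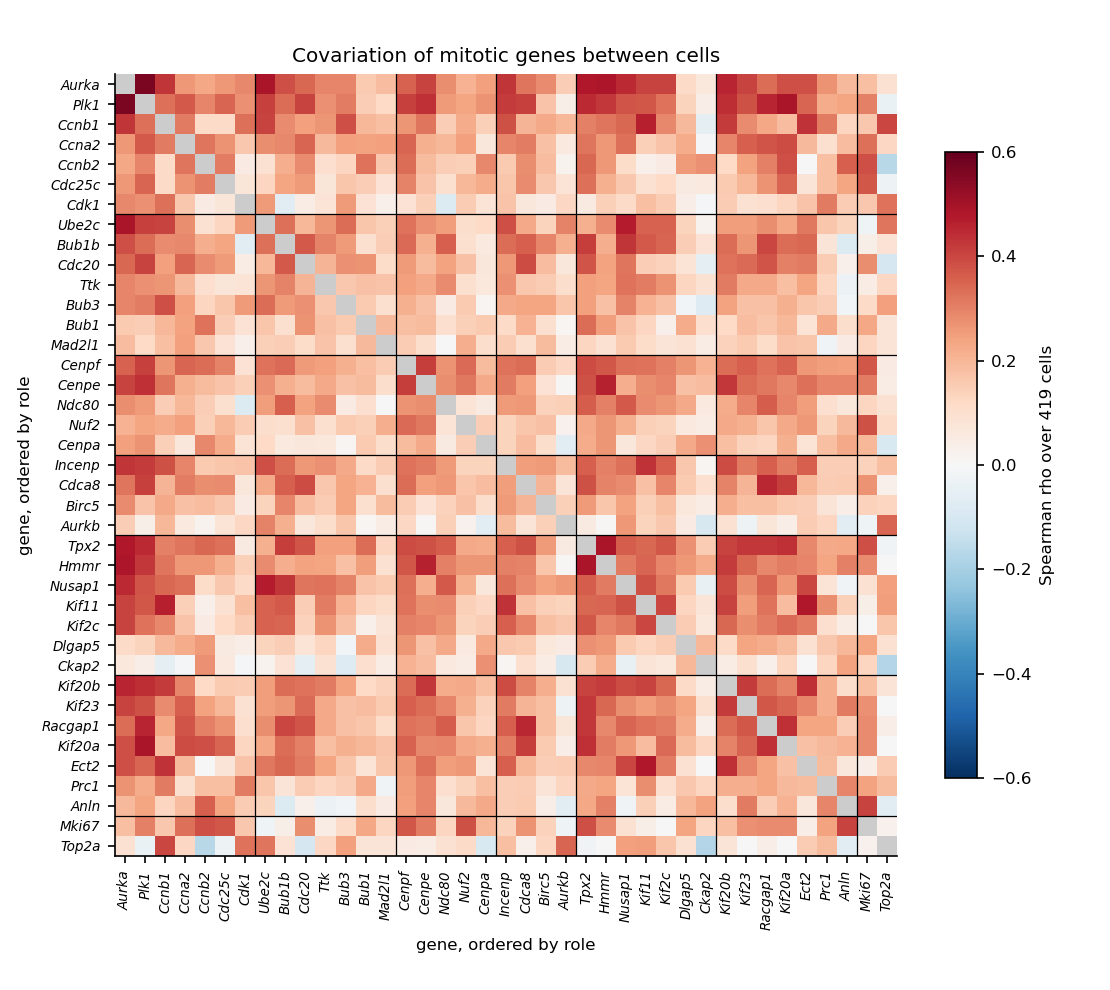
Spearman's rho over 419 cells for each pair of the 39 genes, on a colour scale from -0.6 (blue) to 0.6 (red), with genes on both axes ordered by role and lines between roles. The rows of Aurka and Plk1 are red across most roles, and those of Ckap2 and Top2a are pale, with their own pair at -0.177.

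Each member was then set against the mean log2(value + 1) of the other 38, called the mitotic score. Of the 39 members, 30 reached a rho of at least 0.3, against 1.04% of the other genes past the same level limit. Without the 5 lowest cells 29 did so, against 0.841%, and without the 9 cells with few pluripotency markers 30, against 0.869%. The members' median was 0.429 and that of the other genes 0.0383. Within the lanes the count was 32, 26, 27, 35 and 28 of 39 for lanes 2 to 6. Here too the 5 lowest cells, all in lanes 2 and 5, were kept, and no share of the other genes is given for single lanes. No member was below 0, against 36.9% of the other genes. The highest were Aurka at 0.661, Plk1 at 0.640, Tpx2 at 0.629, Cenpf at 0.571, Hmmr at 0.567, Kif20b at 0.556 and Nusap1 at 0.538. All 7 midzone and cytokinesis genes reached 0.3, from 0.321 for Anln to 0.556 for Kif20b, as did 6 of 7 entry genes, where Cdk1 was lowest at 0.226. In the checkpoint group 5 of 7 did, led by Ube2c at 0.495, with Bub1 at 0.288 and Mad2l1 at 0.206. For the kinetochore the count was 4 of 5, with Cenpa at 0.269, and for the spindle 5 of 7, with Dlgap5 at 0.273 and Ckap2 at 0.111. For the passenger complex it was 2 of 4, with Incenp at 0.521, Cdca8 at 0.449, Birc5 at 0.296 and Aurkb at 0.141. Top2a stood at 0.128 and Mki67 at 0.373.

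The level of a gene did not order these values closely, since the rho between mean level and rho to the other members was 0.223 across the 39 genes, which are not independent of each other. Aurka, near the middle of the per-kilobase order, was highest, and Top2a, at 86.7 per kilobase, was next to the lowest. The mitotic score had a rho of 0.0216 over cells with the number of rows above 0 and of -0.108 with the cell total. Among the members, Top2a had the highest rho with the score of the DNA replication genes, 0.330, followed by Mad2l1 at 0.250 and Bub1b at 0.236, while Anln at -0.262 and Cenpa at -0.192 were the lowest.

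The promoters of 6 members are shown for comparison, chosen after the values were seen: Aurka and Plk1 with the highest rho to the others, Hmmr with a further high one, Ckap2 and Top2a with the lowest, and Cdc20 with the highest level per kilobase. RefSeq promoter windows (GRCm38.p6, 250 bases before to 50 after the start) were matched by symbol to 32 of the 39 members, which gave 35 windows. Aurkb, Cdc25c, Dlgap5, Ccna2, Incenp, Kif20a and Tpx2 had no entry. The windows shown are chr2:172370521-172370820 (minus strand) for Aurka, chr7:122159185-122159484 (plus strand) for Plk1, chr11:40733388-40733687 (minus strand) for Hmmr, chr4:118437294-118437593 (minus strand) for Cdc20, chr11:99024140-99024439 (minus strand) for Top2a and chr8:22185770-22186069 (minus strand) for Ckap2. Each is written 5′ to 3′ along the gene's strand, and capitals mark matches on either strand of the CCAAT box and of the cell cycle homology region, the latter searched as TTTGAA and as its variant TTCGAA. On the opposite strand CCAAT reads in these windows as ATTGG, while TTTGAA reads there as TTCAAA. No 2 of these motifs overlap in the windows shown.
Aurka: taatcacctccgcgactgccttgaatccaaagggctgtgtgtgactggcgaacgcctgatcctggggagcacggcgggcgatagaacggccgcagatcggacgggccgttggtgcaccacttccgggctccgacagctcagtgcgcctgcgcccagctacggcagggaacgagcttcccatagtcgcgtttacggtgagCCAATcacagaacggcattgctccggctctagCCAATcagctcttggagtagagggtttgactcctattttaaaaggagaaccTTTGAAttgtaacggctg
Plk1: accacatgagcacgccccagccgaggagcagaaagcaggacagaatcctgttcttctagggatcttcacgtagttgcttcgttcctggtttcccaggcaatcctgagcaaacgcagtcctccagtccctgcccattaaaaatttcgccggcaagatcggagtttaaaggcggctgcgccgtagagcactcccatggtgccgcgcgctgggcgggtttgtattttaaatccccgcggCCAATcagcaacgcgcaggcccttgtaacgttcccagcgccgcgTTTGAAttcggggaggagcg
Hmmr: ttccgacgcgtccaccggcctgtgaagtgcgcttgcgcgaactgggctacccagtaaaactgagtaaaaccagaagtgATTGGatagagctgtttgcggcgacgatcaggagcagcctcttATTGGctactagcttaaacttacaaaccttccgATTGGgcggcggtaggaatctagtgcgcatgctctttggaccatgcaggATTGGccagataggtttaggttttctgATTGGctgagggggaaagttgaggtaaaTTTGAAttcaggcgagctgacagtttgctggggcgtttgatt
Cdc20: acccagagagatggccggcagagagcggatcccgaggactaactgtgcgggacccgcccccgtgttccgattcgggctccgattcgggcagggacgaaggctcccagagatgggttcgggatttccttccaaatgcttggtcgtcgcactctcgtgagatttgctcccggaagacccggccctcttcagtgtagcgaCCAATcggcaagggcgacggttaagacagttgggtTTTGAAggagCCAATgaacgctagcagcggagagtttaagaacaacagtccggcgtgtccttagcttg
Top2a: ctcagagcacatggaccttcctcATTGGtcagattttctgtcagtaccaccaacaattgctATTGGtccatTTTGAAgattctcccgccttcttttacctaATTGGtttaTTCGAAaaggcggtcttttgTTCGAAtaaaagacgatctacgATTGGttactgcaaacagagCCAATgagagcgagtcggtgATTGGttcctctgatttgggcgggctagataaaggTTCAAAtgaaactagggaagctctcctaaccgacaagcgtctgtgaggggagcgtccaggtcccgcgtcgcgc
Ckap2: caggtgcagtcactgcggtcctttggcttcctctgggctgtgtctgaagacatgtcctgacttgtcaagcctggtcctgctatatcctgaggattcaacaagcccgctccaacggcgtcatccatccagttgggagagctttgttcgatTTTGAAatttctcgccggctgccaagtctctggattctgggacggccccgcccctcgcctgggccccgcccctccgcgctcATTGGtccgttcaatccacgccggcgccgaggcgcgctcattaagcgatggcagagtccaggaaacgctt
All 6 windows hold at least 1 homology region match and at least 1 CCAAT match. Aurka has 1 and 2 of them, Plk1 1 and 1, Hmmr 1 and 5, Cdc20 1 and 2, Ckap2 1 and 1, and Top2a 4 and 6. Top2a and Ckap2, the members least alike in their values, thus hold both motifs as well.

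Over all 35 windows, TTTGAA stood in 28 (80.0%), against 17.9% of all 32851 windows in the table. TTCGAA stood in 3 (8.57%) against 1.56%. CCAAT stood in 27 (77.1%) against 37.4%, and 2 or more CCAAT matches in 18 (51.4%) against 11.7%. Windows with TTTGAA or TTCGAA together with CCAAT numbered 25 (71.4%), against 7.52% of all windows. The windows of Bub3, Ect2 and Prc1 overlap within each gene, so 1 site can be counted in 2 windows. By gene, TTTGAA stood in 25 of 32 members, and TTTGAA or TTCGAA together with CCAAT in 22 of 32. Neither homology region motif was found in the windows of Ccnb1, Mad2l1, Cenpe, Nuf2, Birc5 and Nusap1. A match is a description of letters, and no binding was measured here.

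Of the 15 genes outside the 39 with the highest rho to the mitotic score, 8 were on a list of 40 other G2 and mitosis genes. Ckap2l, a spindle protein gene, had the highest rho of all genes outside the 39, 0.625, followed by Aspm, a spindle pole protein gene, at 0.571, the GTPase-activating protein genes Arhgap11a at 0.548 and Arhgap19 at 0.537, the Cdk1-binding Cks2 at 0.542 and the phosphatase-targeting Cdca2 at 0.532. The kinesin Kif18a stood at 0.507, Arl6ip1 at 0.487, the kinetochore scaffold Knl1 at 0.477, the kinesins Kif4 and Kif22 at 0.468 and 0.453, Ckap5 at 0.452, Trim59 at 0.448 and Dbf4, which activates the replication kinase Cdc7, at 0.444. Of the list of 40, 39 were matched and measured, and 23 reached 0.3, with a median of 0.327. Of all genes outside the mitotic set past the same level limit, 1.04% reached 0.3. Lbr, of the inner nuclear membrane, was lowest at -0.114, and Melk stood at 0.106.

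No gene of the other 4 cell cycle lists reached a rho of 0.3 with the mitotic score. Of all genes outside the mitotic set past the same level limit, only 1.04% did so. In lists of this size, a count of none therefore does not set these genes apart from other genes. Of 17 genes of the anaphase-promoting complex and its regulators, the highest was Fzr1, the activator that works in G1, at 0.298, followed by Cdc27 at 0.267, and the lowest were Anapc16 at -0.0484 and Anapc13 at -0.0467. For the 15 transcriptional regulators of mitotic genes, Nfyc stood highest at 0.192 and Lin54, of the complex that binds the homology region, at 0.161, with Nfyb at -0.0525 and Rbl2 at -0.0497 lowest. The 40 DNA replication and G1/S genes had a median rho of 0.0626 with the mitotic score, from -0.187 for Uhrf1 and -0.173 for Chaf1a to 0.209 for Orc1 and 0.228 for Cdt1. Among themselves the replication genes had a median pair rho of 0.220, near the 0.213 of the mitotic genes, while the rho between the replication score and the mitotic score was 0.00535. Of the 9 G1 cyclins, kinases and inhibitors with a mean of at least 5, Ccnd3 was highest at 0.175 and Cdkn1b at 0.144, and Rb1 at -0.255 and Cdk2 at -0.104 were lowest. The pluripotency score had a rho of 0.182 with the mitotic score, and of its 10 genes Zfp42 stood at 0.224, Nanog at 0.201, Dppa5a at 0.0255 and Pou5f1 at -0.00673.

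**Figure D4:**
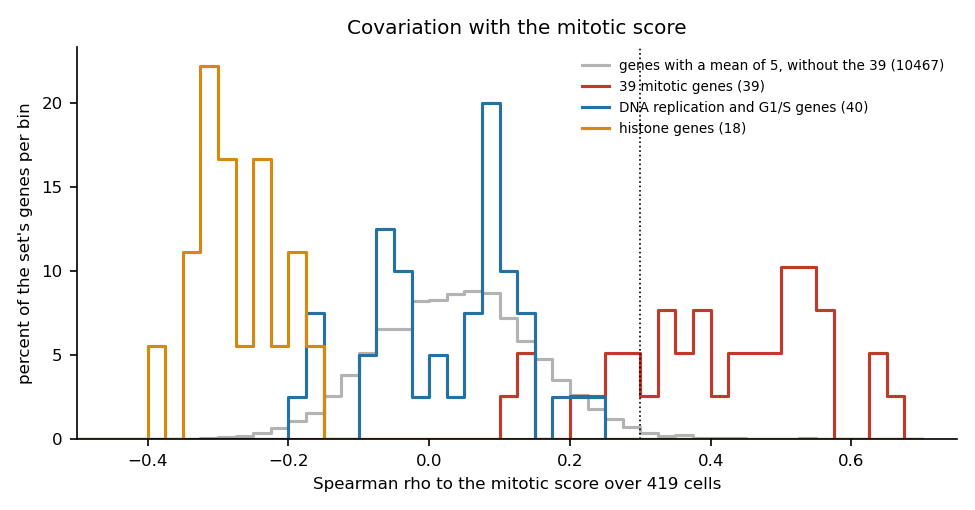
Distribution of Spearman's rho to the mitotic score over 419 cells (x axis) as a percentage of each set's genes per bin (y axis). The 39 mitotic genes, each against the other 38, lie from 0.111 to 0.661; the 40 replication genes lie among the other genes around 0, the 18 genes with histone symbols, 1 of them a pseudogene, all lie below 0, and the dotted line marks 0.3.

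The third comparison was between alleles. All 39 members are autosomal and passed the allele filter of at least 5 per cell on average from either allele, which left 7417 genes. The members' median pooled share of the 129Sv allele was 49.5%, against 50.1% for those genes. A share of at least 55% was reached by 4 members, against 17.6% of genes, and a share of at most 45% by 8 members, against 17.2%. Prc1 was highest, at a mean of 35.5 from 129Sv and 24.2 from CAST, or 59.4% ± 2.83 (SD over 5 lanes). Plk1 followed at 58.1% ± 1.40, with Kif2c and Anln at 56.9% each. Cenpe was lowest at 41.4% ± 3.01, with means of 23.8 and 33.8, followed by Mad2l1 at 43.2% ± 1.53, Dlgap5 at 43.4%, Racgap1 at 43.7%, Kif11 at 44.0%, Aurka at 44.2%, Top2a at 44.7% and Ccnb1 at 44.7%. In 8 members the share was above 50% in every lane, against 28.0% of the 7417 genes, and in 14 below 50% in every lane, against 26.6%. The lanes are sequencing lanes, so this spread may be technical.

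Single rows could lie further from equality than their genes. Of the 87 member rows with a mean of at least 5, 5 had a 129Sv share of at least 60%, against 9.47% of the 15804 annotated autosomal rows of that level, and 6 of at most 40%, against 11.3%. A short coding row of Plk1, of 582 bases, was at 79.2%, while its main row of 2199 bases, with 89.9% of the gene's value, was at 56.1%. A retained-intron row of Cdca8, of 3358 bases, was at 22.0% and lay between 20.1% and 24.2% in the lanes. A coding row of Nuf2, of 2405 bases, was at 28.8% and one of Tpx2, of 3654 bases, at 32.9%. For Prc1, 3 rows stood above 60%, at 61.8%, 62.7% and 65.9%.

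Within a gene, the 129Sv and CAST values of a cell were related in some members and not in others. A rho of at least 0.3 between the alleles was reached by 8 of 39 members, against 12.3% of the 7417 genes, and 18 of 39 were below 0, against 62.9%. The median was 0.0297 for the members and -0.0964 for all. Both counts were the same without the 5 lowest cells. Cdc20 was highest at 0.608, followed by Plk1 at 0.513, Hmmr at 0.483, Mki67 at 0.473, Cenpf at 0.392, Top2a at 0.376, Anln at 0.354 and Ckap2 at 0.322. Nusap1 was lowest at -0.405, followed by Ndc80 at -0.389, Bub3 at -0.348, Ect2 at -0.337 and Ttk at -0.322. Across the 39 members the rho between mean level and this value was 0.501. The members and the 7417 genes were not matched for level, and the part of level in these differences was not tested. A value from only 1 allele was found in 140 cells for Ndc80, 120 for Nusap1, 116 for Cdc25c and 78 for Aurka, but in 5 cells for Cdc20 and 0 for Racgap1. Alleles within 10% of their sum of each other were found in a median of 22.7% of cells for the members and 19.8% for the 7417 genes, from 13.6% for Aurka to 39.9% for Nusap1. The depth in reads behind each allele value is unknown.

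The alleles of different genes share no reads, only the cell and its library, and here the members were related in both directions. The 129Sv value of a member had a rho above 0 with the CAST score of the other 38 in 39 of 39 members, against 62.7% of the 7378 other genes of the allele filter, and of at least 0.3 in 19, against 0.0949%. Without the 5 lowest cells that count was 11 and without the 9 cells with few pluripotency markers it was 12, with 39 of 39 above 0 in the former. No share of the other genes is given for these subsets of cells or for single lanes. The CAST value had a rho above 0 with the 129Sv score of the others in 39 of 39 members, against 60.2%, with 38 without the 5 lowest cells. It had a rho of at least 0.3 in 13, against 0.176%, and in 12 without the 5 lowest cells. Within the lanes the count for 129Sv to CAST was 21, 9, 16, 26 and 15 for lanes 2 to 6. The 5 lowest cells, kept in these lane counts, all lie in lanes 2 and 5, the lanes with the highest counts. Plk1 was highest in both directions, at 0.515 and 0.507. By the 129Sv value with the CAST score, Cenpf followed at 0.431, Tpx2 at 0.421, Kif20b at 0.410 and Ccnb1 at 0.379. By the CAST value with the 129Sv score, Ccnb1 followed at 0.425, Aurka at 0.420, Hmmr at 0.393 and Cenpf at 0.385. Aurkb at 0.106 and 0.0880 and Ckap2 at 0.144 and 0.0359 were among the lowest.

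In 31 of 39 members the rho between a gene's own alleles was below both of its values with the other allele of the other genes, against 61.8% of the 7378 other genes set against the members' scores. All 18 members below 0 between their own alleles were above 0 in both of the other comparisons, as were all 39 members. That count therefore follows from those given above and adds nothing on a gene's own alleles. Of the other genes below 0 between alleles, 49.0% were above 0 in both comparisons with the members' scores. Aurka, for example, had -0.267 between its own alleles, 0.329 for its 129Sv value with the CAST score of the other members and 0.420 for its CAST value with their 129Sv score. The score differs from a single allele in being a mean over 38 genes. Cdc20, Top2a, Mki67, Ckap2 and Anln were among the members in which the gene's own alleles were more alike than either was to the others: Cdc20 had 0.608 against 0.312 and 0.324, and Ckap2 0.322 against 0.144 and 0.0359. The mitotic score made from the 129Sv values alone had a rho of 0.587 with that from the CAST values over the 419 cells, and of 0.572 without the 9 cells with few pluripotency markers.

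**Figure D5:**
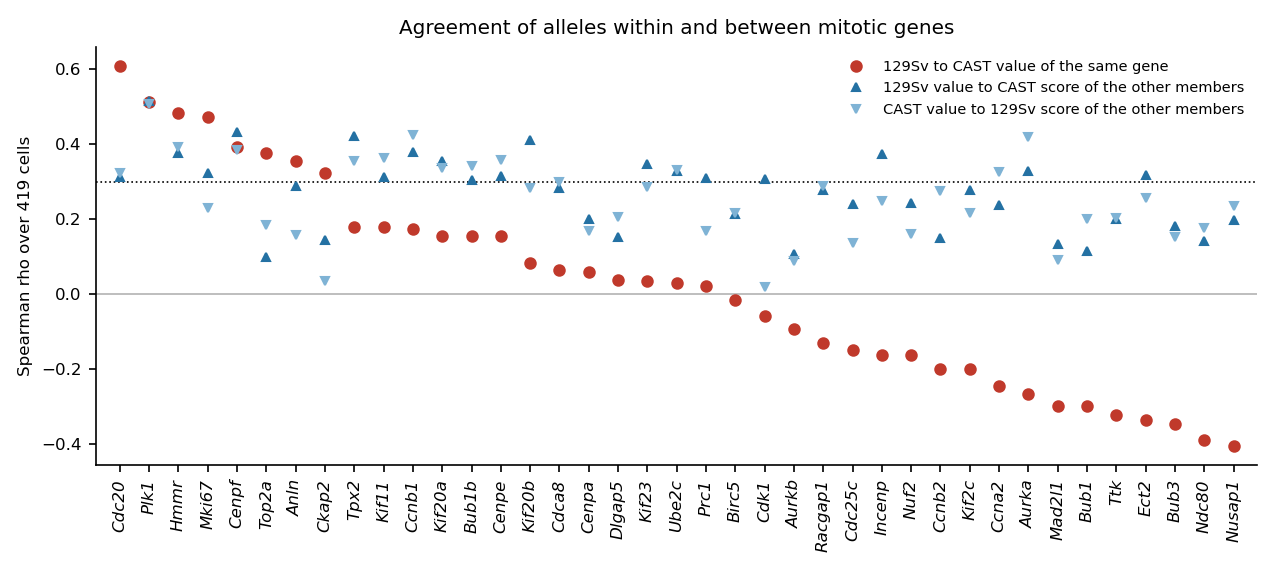
Spearman's rho over 419 cells (y axis) for each member (x axis): between its 129Sv and CAST values (red circles), and between each allele and the score of the other members on the other allele (blue triangles). Red circles fall from 0.608 for Cdc20 to -0.405 for Nusap1, while every triangle lies above 0; the dotted line marks 0.3.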

How the data were processed

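The authors deposited 1 table for each allele with 117762 transcript rows and 1 column for each of 419 cells. The deposited values are whole numbers but not raw counts: they were taken as a score, that is, allele estimates that were scaled and rounded. The design had assumed counts, so no count test was used and the depth in reads is unknown. Totals over both alleles had a median of 925852 and ran from 698363 to 1477660. Per the submitters' processing notes, Bowtie 1.1.2 and mm10 were used, with no step stated; for the assignment of alleles no tool is given in the sources used here.

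Rows were joined to GENCODE vM21 (mm10), and 116919 matched. A gene's value is the sum of its rows after setting each cell total to the mean, and per-kilobase levels divide each row by its length. Reads shared with copies elsewhere in the genome were not examined. Genes entered with a mean of at least 5 per cell, or of at least 5 per allele for autosomal genes. Genes were left out of allele comparisons where the squared difference between alleles, summed over cells, was under 0.5 of their total. Spearman's rho was computed on gene values over cells, and scores are means of log2(value + 1) with a pseudocount of 1. With 1 sample there was no test. Cells were sequenced in 5 lanes of 88, 83, 82, 80 and 86 cells, and all 95 index pairs were used in more than 1 lane, with 0 cells identical to another. Doublets were not called, and the main values keep every cell. The members and lists were chosen with earlier results of these data known. Members are described by role with the highest and lowest of each, together with the 15 other genes of highest and the 5 of lowest rho to the score and the 2 ends of each cell cycle list. A gene named by this rule is not reported here. The calculations were tested on simulated data. Python 3.11.15, numpy 2.4.6, pandas 2.3.3, scipy 1.17.1 and matplotlib 3.10.9 were used.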

Additional observations from a re-analysis of the deposited data

How the results depend on the processing

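The count of 39 members above 0 in at least 50% of cells was the same under every alternative tried, among them a value of at least 10 in place of above 0, only the highest row of each gene, and each lane left out in turn. The count of members with a rho of at least 0.3 to the others, 30, ran from 23 with only the highest row to 37 with Pearson's r of log2(value + 1), and from 29 to 32 with each lane left out. With Pearson's r and without the 5 lowest cells, an alternative added after seeing the data, it was 32. The median pair rho of 0.213 was 0.481 as Pearson's r, which was 0.235 without the 5 lowest cells, an alternative added after seeing the data, and otherwise ran from 0.164 to 0.223. The count of members whose 129Sv value reached 0.3 with the CAST score of the others, 19, was 11 with only the highest row, 12 without the 9 cells with few pluripotency markers and 11 without the 5 lowest cells; the cause was not tested. Elsewhere it ran from 14 to 27, the latter with Pearson's r. The count between a gene's own alleles, 8, ran from 7 to 11. The median 129Sv share of 49.5% was 50.0% as the median over cells of the share per cell and otherwise lay between 49.0% and 49.7%. No paired analysis was possible because there is 1 group and no comparison between groups. The unknown depth limits above all the allele values of low members such as Ndc80 and Cdc25c.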

Other observations

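Genes that ran opposite to the mitotic score included genes with histone symbols Hist1 to Hist4, most of which are replication-dependent histone genes, whose mRNAs accumulate in S phase and mostly lack a poly(A) tail. This list was made after the values were seen. It held 18 genes with a mean of at least 5, of which 17 are annotated as coding and Hist1h2al as a processed pseudogene. All 18 had a rho below 0 with the mitotic score over the 419 cells, against 36.9% of the other genes averaging 5 or more, with a median of -0.281 and a range from -0.393 to -0.173. Without the 9 cells with few pluripotency markers the median was -0.300. The 5 lowest of all genes were Ptk7, a receptor of the planar cell polarity pathway, at -0.406, Hist1h4d at -0.393, the pseudogene Hist1h2al at -0.349, the tetraspanin Cd81 at -0.339 and the linker histone Hist1h1d at -0.327. Histone genes are near-identical copies of each other, and how reads were divided among them was not examined.

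Ptk7 ranged per cell from 3.38 over a median of 63.0 to 522 and Cd81 from 24.1 over 136 to 566. Between alleles, the 129Sv value of Ptk7 had a rho of -0.319 with the CAST mitotic score and its CAST value -0.340 with the 129Sv score, and Cd81 had -0.289 and -0.244. The histone genes named here did not enter the allele comparisons.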
